A study of Mus musculus with 8 samples.

Results

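Voltage-gated ion channels and their relatives were followed through 2 perturbations of mouse embryonic stem cells by sequencing of polyA-selected RNA. The set held 129 of the 24421 gene symbols that the deposited count tables share. The genes were chosen by symbol alone, as every symbol of the Kcn, Scn, Cacna, Cacnb and Cacng series, without the long noncoding RNA Kcnq1ot1. It comprised 94 potassium, 13 sodium and 22 calcium channel genes. No measured value entered the choice of a gene, but the family was put forward with results of these data known, so counts over it are descriptions and not independent evidence. The name pattern also took genes whose products are not gated by voltage themselves. Among them are the inward rectifiers, the 2-pore-domain channels, the Kcnn channels opened by calcium, several auxiliary subunits and Kcnd3os, an RNA antisense to a channel gene.

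There were 8 libraries, 2 for each of 4 groups. In the v6.5 line, cells depleted of Ubc9 by 72 h of doxycycline (DOX) were set against v6.5 control cells. Ubc9 is the enzyme that attaches SUMO, a small protein, to other proteins. H1 TKO cells, in which the linker histone genes Hist1h1c, Hist1h1d and Hist1h1e are knocked out together, were set against control cells of their own, and both lines came from an earlier publication. All cells were kept in 2i/LIF, a medium that holds embryonic stem cells in a naive state, for 3 to 4 passages. Whether the Ubc9 controls were given DOX, whether paired libraries came from separate cultures and how many clones each line stands for are not stated in the labels, so p-values measure the spread between libraries, which may be technical. The kits also differed (ScriptSeq v2 for the Ubc9 cells, Lexogen SENSE V2 for the H1 cells), and each comparison was therefore made within its own 4 libraries.

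As background, voltage-gated channels are built from pore-forming alpha subunits whose charged segments move when the membrane potential changes. Potassium channels repolarise the cell, sodium channels carry the rapid upstroke of the action potential, and calcium channels turn depolarisation into calcium entry. Auxiliary beta, gamma and related subunits set the trafficking and kinetics of the pores, and silent modifier subunits form no channel alone but join other pores. Most of these genes are known for their use in neurons, muscle and heart, and many are kept silent outside them, in part by the repressor Rest.

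Library totals were 88410194 and 75972231 counts for Ubc9-depleted replicates 1 and 2, against 102780141 and 99269669 for their controls. They were 44441713 and 68445181 counts for H1 TKO replicates 1 and 2, against 56032400 and 52960206 for theirs. At these depths 3 counts correspond to 0.03 to 0.0685 CPM (the usual depth-scaled count, here on TMM library sizes within each comparison). The 3 linker histone genes had 0 counts in both H1 TKO libraries, and Hist1h1c, Hist1h1d and Hist1h1e were at least 65.5-fold, 126-fold and 89.5-fold lower than in the H1 controls when 3 counts over the TKO pair are taken as the floor. The 8 stem cell markers summed to 4710 and 4840 CPM in Ubc9-depleted libraries, against 5060 and 5330 CPM in the controls, and to 10600 and 10500 CPM in H1 TKO libraries, against 5370 and 5840 CPM in the controls. Much of the higher H1 TKO sum was Tfcp2l1, at 5416 and 4914 CPM, against 1778 and 1611 CPM. It was the 1 marker of 8 called higher there (edgeR, adjusted p under 0.05), 0 were called lower, and 8.59% and 8.43% of all genes were called. Both TKO libraries lay below both controls for Zfp42 and Klf4. Ubc9-depleted replicate 1 stood apart, as described next. Across genes, the log2 ratio between the 2 libraries of a group had an SD of 0.484 in Ubc9-depleted cells and 0.181 in their controls, and of 0.273 in H1 TKO cells and 0.54 in theirs.

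Channel genes were detected more widely in Ubc9-depleted replicate 1 than in any other library. At least 1 count was found for 129 of the 129 genes in Ubc9-depleted replicate 1 and for 118 in replicate 2, against 110 and 106 in the Ubc9 controls. In the H1 series the same count was 91 and 100 in H1 TKO libraries and 97 and 81 in H1 controls. When every library was thinned in expectation to the smallest total, the numbers were 128.8 and 110.9 in Ubc9-depleted cells, against 97.3 and 95 in the controls, and the 4 libraries kept their order. The median channel gene stood at 1.38 CPM in Ubc9-depleted replicate 1 and 0.262 CPM in replicate 2, against 0.134 and 0.109 CPM in the controls.

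Of the 129 genes, 26 had at most 1 count in each Ubc9 control, among them the delayed rectifier gene Kcna5, the brain sodium channel gene Scn1a and the inward rectifier gene Kcnj11 of the ATP-sensitive potassium channel. All 26 had more counts in Ubc9-depleted replicate 1 than in replicate 2, with 11 to 210 counts (median 56) in replicate 1 and 0 to 28 (median 1.5) in replicate 2. At equal depth, 100% of them would carry a read in Ubc9-depleted replicate 1 and 57.3% in replicate 2, against 18.3% and 13.8% in the controls. The control shares are low because the genes were chosen by their control counts. In the H1 series, which did not enter that choice, the shares were 23.1% and 24% in TKO libraries and 17.6% and 16.8% in controls. The difference between the Ubc9-depleted replicates was not limited to channel genes: among all 6248 genes equally quiet in the Ubc9 controls, the shares were 80.4% and 22.1% in Ubc9-depleted replicates 1 and 2. They were 6.87% and 5.73% in the Ubc9 controls, again by the choice of genes. Levels of the quiet channel genes in Ubc9-depleted replicate 1 were low, with a median of 0.139 RPKM (CPM per kilobase of exon) and a highest value of 0.674 RPKM. Because this library stands apart, Ubc9-depleted replicate 2 is shown separately below, except where a mean over both replicates is named.

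**Figure D1:**
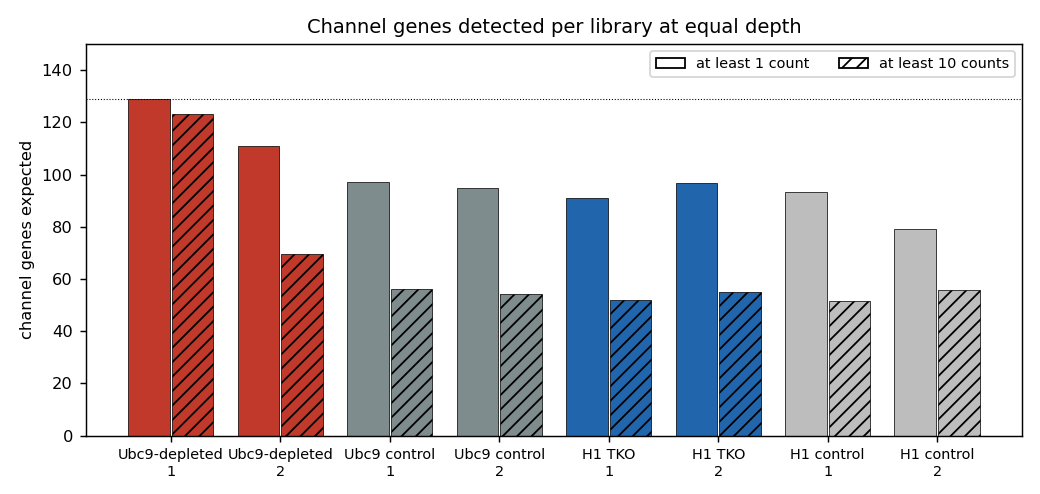
Number of the 129 channel genes (dotted line) expected with at least 1 count (plain bars) or at least 10 counts (hatched bars) in each of the 8 libraries when all are brought to the depth of the smallest. Ubc9-depleted replicate 1 stands at 128.8 and replicate 2 at 110.9 for at least 1 count, above the other 6 libraries.

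Compared per exon length, few channel genes were expressed at more than a trace. A mean of 1 RPKM or more was reached by 15 genes in Ubc9-depleted cells and 13 in their controls, and by 6 genes in H1 TKO cells and 13 in theirs. In all, 18 genes reached it in some group and 6 in all 4 groups. In single libraries, 17 and 14 genes exceeded 1 RPKM in Ubc9-depleted replicates 1 and 2, against 13 and 14 in the controls. The gene with the highest level in 3 of the 4 groups was Kcnk5, a 2-pore-domain channel that passes an acid-sensitive background potassium current, with mean levels of 8.61 RPKM in Ubc9-depleted cells and 10.7 RPKM in their controls, and of 6.90 RPKM in H1 TKO cells and 13.04 RPKM in theirs. In H1 TKO cells the highest was Kcnj12, a strong inward rectifier, at 8.61 RPKM, against 8.57 RPKM in the H1 controls. Kcnk1, another background channel, had mean levels of 5.75 RPKM in Ubc9-depleted cells and 6.65 RPKM in their controls, and of 1.07 RPKM in H1 TKO cells and 3.95 RPKM in theirs.

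Among the calcium channel genes the highest pore gene was Cacna1a, which encodes the P/Q-type pore, with mean levels of 3.95 RPKM in Ubc9-depleted cells and 4.04 RPKM in controls, and of 3.32 RPKM in H1 TKO cells and 4.61 RPKM in controls. It had 44.0 and 46.3 CPM in Ubc9-depleted libraries, against 47.8 and 44.6 CPM in controls, and the groups overlapped. The sodium channel gene with the highest pore level was Scn3a, which encodes a pore known from the embryonic brain, with 27.0 and 27.8 CPM in Ubc9-depleted libraries and 29.7 and 32.7 CPM in controls. Of the auxiliary subunits, Cacnb3, a cytosolic calcium channel beta subunit, led in Ubc9 controls at a mean of 4.45 RPKM. At the other end, 44 genes had a mean below 0.1 RPKM in Ubc9-depleted cells and 86 in the controls, as had 87 in both H1 groups. The depleted mean includes replicate 1, where the median channel gene stood at 1.38 CPM, against 0.262 CPM in replicate 2.

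**Figure D2:**
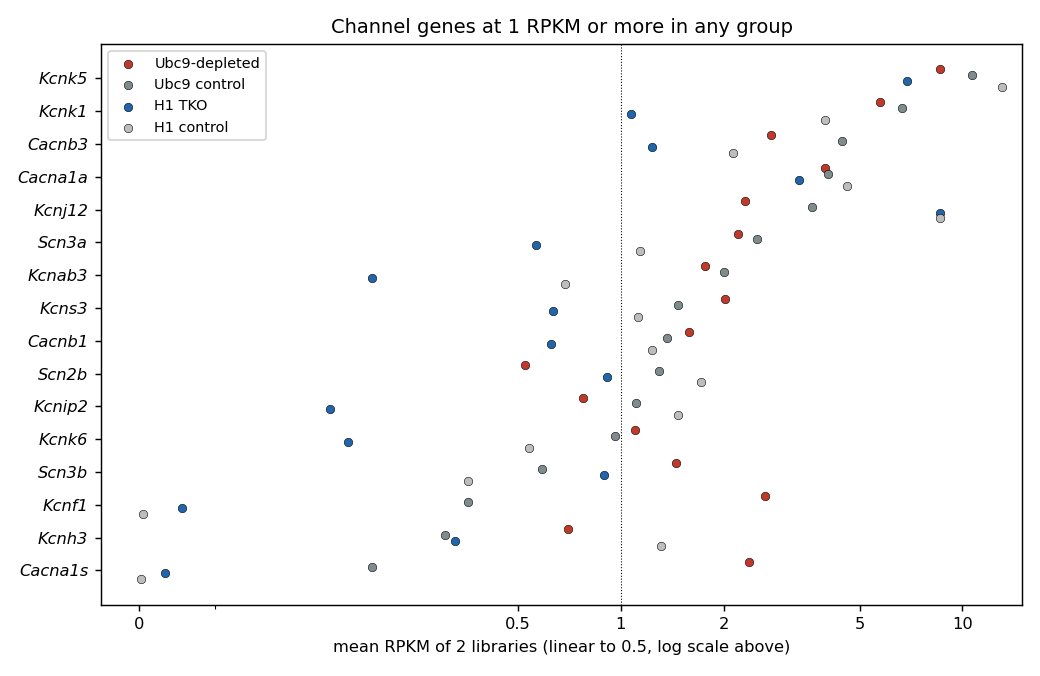
Mean RPKM over 2 libraries in each of the 4 groups for 16 of the channel genes that reached 1 RPKM (dotted line) in any group, ordered by the Ubc9 control level; the axis is linear up to 0.5 and logarithmic above. Kcnk5 is highest in 3 groups, and Kcnf1 and Cacna1s pass 1 RPKM in Ubc9-depleted cells, with 0.434 and 0.307 RPKM in the Ubc9 controls.

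The first comparison concerns cells labelled as depleted of the SUMO-conjugating enzyme. Of the 129 channel genes, 80 passed the filter on low counts and were tested, and 30 rose and 5 fell after Ubc9 depletion with an adjusted p under 0.05 (edgeR, Benjamini-Hochberg adjustment over all genes tested). Over all 16499 genes tested, 21.1% were called higher and 15% lower. A gene silent in both controls could pass the filter solely through the depleted libraries, so the share called higher among tested genes is partly set by the filter. The same limit holds for each ion and class below. The median log2 fold change of the 80 tested channel genes was 0.80, against 0.06 for all genes. Other fits tested other sets of channel genes. Without Ubc9-depleted replicate 1 the median was 0.42 over 79 channel genes, against -0.0051 for all genes. Without replicate 2 it was 3.03 over 125, against 0.2487. With a filter of 1 CPM in 2 libraries it was 0.33 over 41, against 0.017. In bulk RNA, a change in the share of cells that express a gene and a change in RNA per cell cannot be told apart.

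By ion, 16 of 52 tested potassium genes rose and 3 fell, 5 of 9 sodium genes rose and 1 fell, and 9 of 19 calcium genes rose and 1 fell. Without Ubc9-depleted replicate 1, 25 channel genes were called higher and 8 lower of 79 tested, where 19% of all genes were called higher and 15.3% lower, and 21 of the 25 were among the 30 named before. The counts were then 15 higher and 5 lower for potassium, 4 and 1 for sodium, and 6 and 2 for calcium. Without replicate 2 they were 92 higher and 8 lower in all, where 41.8% and 22.9% of all genes were called. Without Ubc9 control replicate 1 they were 14 and 3, where 6.43% and 4.45% of all genes were called, and without Ubc9 control replicate 2 they were 9 and 3, where 6.09% and 3.93% were. More channel genes were tested in these fits, 125 without Ubc9-depleted replicate 2 and 127 without either control. With a control left out, the spread was estimated from the depleted pair, whose libraries differed more. The part of either in the counts was not tested.

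The 30 genes that rose separated by level in the controls. The 8 with a control mean of 1 CPM or more, among them Cacna1s, Kcnf1, Scn3b, Kcnh3, Kcnn2 and Scn8a, had levels in Ubc9-depleted replicate 1 that were 0.771 to 1.35 times those in replicate 2 (median 0.993). All 8 were also called without Ubc9-depleted replicate 1, and 4 of them in each of the 4 fits that left out a library. The 22 with a control mean under 1 CPM had levels in Ubc9-depleted replicate 1 that were 1.37 to 12.5 times those in replicate 2 (median 4.62), and 13 of them were called without replicate 1. Cacna1b and Cacna1c were the 2 of these 22 that were called in each of the 4 fits.

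**Figure D3:**
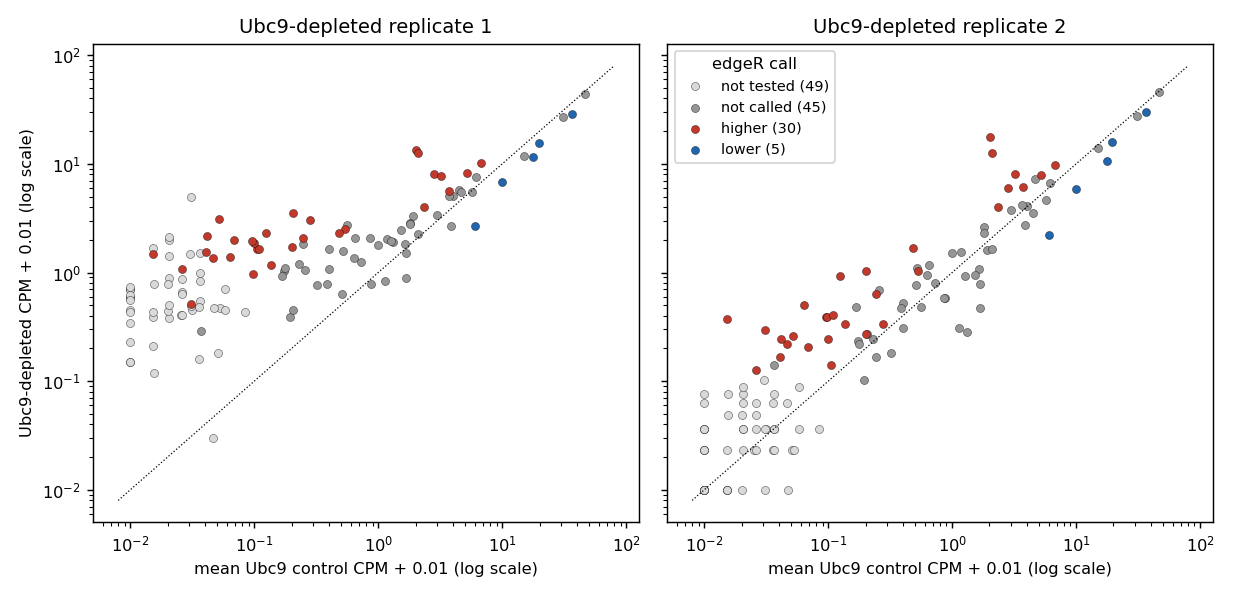
CPM plus 0.01 of each of the 129 channel genes in Ubc9-depleted replicate 1 (left) and replicate 2 (right) against the mean of the 2 Ubc9 controls, on log axes, coloured by the edgeR call; the dotted line marks equality. Genes near 0 in the controls lie far above the line in replicate 1 and closer to it in replicate 2, while the 8 called genes at 1 CPM or more in the controls lie above the line to a like extent in both.

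Kcnf1 and Cacna1s had the largest increases among channel genes with a control mean of 1 CPM or more. Kcnf1 encodes a silent modifier subunit that alters the pores it joins and lies on chromosome 12 (17172100 to 17176888, minus strand, GRCm38). It had 12.6 and 12.7 CPM in Ubc9-depleted libraries, against 2.16 and 2.00 CPM in controls, a log2 fold change of 2.60 ± 0.16 (SE, adjusted p = 6.08e-14, edgeR). Cacna1s encodes the L-type pore that serves as the voltage sensor of contraction in skeletal muscle and lies on chromosome 1 (136052750 to 136119822, plus strand). It had 13.5 and 17.6 CPM in Ubc9-depleted libraries, against 2.32 and 1.71 CPM in controls, a log2 fold change of 2.95 ± 0.17 (adjusted p = 1.04e-14, edgeR). The depleted and control libraries of both genes lay far apart, and both calls held with any single library left out. Of the exonic bases of Cacna1s, 20% overlap a gene model on the opposite strand, and since it is not stated whether counting used strand, reads from the 2 cannot be told apart there.

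The promoter windows of these genes and of Kcnk5, the highest channel gene in the Ubc9 controls, are shown because they differ in CpG content. Each is the RefSeq window (GRCm38.p6) of 300 bases, 250 before and 50 after a transcription start, written along the gene's strand, with CpG dinucleotides in capitals.
Kcnf1 (chr12:17176839-17177138, minus strand): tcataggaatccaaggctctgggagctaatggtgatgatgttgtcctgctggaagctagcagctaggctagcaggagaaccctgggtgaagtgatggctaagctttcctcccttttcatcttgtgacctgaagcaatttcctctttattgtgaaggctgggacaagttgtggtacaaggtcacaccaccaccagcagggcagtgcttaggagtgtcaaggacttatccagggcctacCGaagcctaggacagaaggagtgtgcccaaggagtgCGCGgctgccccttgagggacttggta
Cacna1s (chr1:136052561-136052860, plus strand): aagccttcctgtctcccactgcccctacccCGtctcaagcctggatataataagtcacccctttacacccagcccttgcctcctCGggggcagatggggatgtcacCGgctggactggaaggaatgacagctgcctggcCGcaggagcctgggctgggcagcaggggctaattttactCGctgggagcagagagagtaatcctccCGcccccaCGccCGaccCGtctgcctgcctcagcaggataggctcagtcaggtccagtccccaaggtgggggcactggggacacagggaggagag
Kcnk5 (chr14:20181733-20182032, minus strand): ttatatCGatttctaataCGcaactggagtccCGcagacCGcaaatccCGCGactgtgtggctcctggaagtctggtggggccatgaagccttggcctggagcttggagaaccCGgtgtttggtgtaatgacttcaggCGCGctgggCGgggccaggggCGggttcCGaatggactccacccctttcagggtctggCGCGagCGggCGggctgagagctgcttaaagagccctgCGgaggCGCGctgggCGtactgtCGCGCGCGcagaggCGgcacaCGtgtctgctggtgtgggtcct
Kcnf1 holds 3 CpGs, at 0.15 of the number its base composition would give, and Cacna1s holds 9, at 0.30. Kcnk5, which had a mean of 36.3 CPM in the Ubc9 controls, holds 26, at 0.88. A window was at hand for 95 of the 129 genes, and 38.9% of these 95 exceeded an observed-to-expected CpG ratio of 0.6, against 50.4% of the 17224 windows of genes in the count tables. Where a gene had several windows, the one with the most CpGs was taken, which may not be the start in use. Among the 22 quiet genes that had one, 13.6% exceeded it. Among the 17 windows of genes that rose from a control mean under 1 CPM, 64.7% did. Of the 3 windows of genes that rose from 1 CPM or more, 33.3% did, namely Scn8a with 38 CpGs and a ratio of 1.05. The GC box CCGCCC, searched on both strands, was present in 52.6% of the channel windows and 48.5% of the windows of all genes in the tables. DNA methylation and factor binding were not measured here.

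The remaining potassium channel genes that rose belonged mostly to the voltage-gated pores, of which 8 of 18 tested rose and 1 fell. Kcnh3, a pore of the ether-a-go-go-like branch, had 4.00 and 4.03 CPM in Ubc9-depleted libraries, against 2.30 and 2.35 CPM in controls (0.79 ± 0.28 on the log2 scale, adjusted p = 0.0257, edgeR). The groups did not overlap, and the call was lost when either control was left out. Kcnh1, of the ether-a-go-go branch itself, had 2.53 and 1.02 CPM in Ubc9-depleted libraries, against 0.463 and 0.587 CPM in controls, and its call was lost without Ubc9-depleted replicate 1 and without either control. The Shaker-type pores Kcna1, Kcna3 and Kcna6, the A-type pore Kcnd2 and Kcnq5, of the M-current family, had control means from 0.00515 to 0.269 CPM.

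Among these low genes Kcna6 had the largest fitted fold change. Its counts were 146 and 28 in Ubc9-depleted libraries, against 1 and 0 in controls, and the ratio of CPM was 187 with a 95% counting interval of 33.0 to 7410, which covers counting error only. Its level in Ubc9-depleted replicate 2 was 0.367 CPM, beside 1.46 CPM in replicate 1, and 39.6% of its exonic bases overlap a gene model on the opposite strand. Its call was lost without Ubc9 control replicate 2. Kcnq5 rested on replicate 1, with 3.06 CPM there and 0.327 CPM in replicate 2, against 0.278 and 0.261 CPM in controls, and it was not called without replicate 1 (log2 fold change 0.28, adjusted p = 0.774, edgeR).

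Of the 7 modifier subunits tested, Kcnf1, Kcng4 and Kcns1 rose and 0 fell. Kcns3, the modifier with the highest mean RPKM over the 4 groups, had 5.53 and 7.22 CPM in Ubc9-depleted libraries, against 4.69 and 4.58 CPM in controls, and did not pass (adjusted p = 0.0551, edgeR). All 8 genes classed by family with the calcium- and sodium-activated channels were tested, and Kcnn2, Kcnn4 and Kcnt1 rose. Kcnn2, a small-conductance channel opened by calcium, had 5.59 and 6.06 CPM in Ubc9-depleted libraries, against 3.82 and 3.56 CPM in controls (log2 fold change 0.66 ± 0.21, adjusted p = 0.014, edgeR). The groups did not overlap, and the call was lost when either control was left out. Kcnu1, a channel of sperm with the highest RPKM of this class averaged over the 4 groups, had 2.76 and 2.32 CPM in Ubc9-depleted libraries, against 1.72 and 1.90 CPM in controls, and did not pass (adjusted p = 0.302, edgeR).

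Kcnj3 was the single inward rectifier of 7 tested that rose. It encodes a subunit of the channel opened by G proteins and had 2.30 and 1.68 CPM in Ubc9-depleted libraries, against 0.257 and 0.695 CPM in controls (log2 fold change 2.06 ± 0.60, adjusted p = 0.00805, edgeR). The groups did not overlap, the call was lost when either control was left out, and 31.1% of its exonic bases overlap an opposite-strand gene model. Kcnk12 was the single 2-pore-domain gene of 6 tested that rose, with 2.29 and 0.917 CPM in Ubc9-depleted libraries, against 0.144 and 0.0869 CPM in controls, and its call was lost without Ubc9 control replicate 2. Of the 6 potassium auxiliary subunits tested, edgeR called 0 in either direction, and Kcnab3, the highest of them, had 5.44 and 4.66 CPM in Ubc9-depleted libraries, against 6.24 and 5.24 CPM in controls. The antisense RNA Kcnd3os was not tested, with 37 and 2 counts in Ubc9-depleted libraries and 1 and 1 in controls.

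The sodium channel beta subunits tie the pore to adhesion molecules and tune its gating. All 4 of their genes were tested, and 2 rose and 1 fell. Scn3b had 7.79 and 8.08 CPM in Ubc9-depleted libraries, against 3.32 and 3.07 CPM in controls (log2 fold change 1.31 ± 0.18, adjusted p = 1.44e-06, edgeR). Scn2b, by contrast, had 2.65 and 2.21 CPM in Ubc9-depleted libraries, against 5.94 and 6.14 CPM in controls, and fell by 1.31 ± 0.23 on the log2 scale (adjusted p = 5.91e-05, edgeR). Both calls held with any single library left out.

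Of the 5 sodium pore genes tested 3 rose, Scn4a and Scn8a among them. Scn8a, a pore of mature neurons, had 10.3 and 9.70 CPM in Ubc9-depleted libraries, against 6.72 and 6.66 CPM in controls (log2 fold change 0.58 ± 0.14, adjusted p = 0.00153, edgeR), and the call was lost when either control was left out. Scn4a, the skeletal muscle pore, had 1.08 and 0.118 CPM, against 0.0103 and 0.0217 CPM in controls, a ratio of CPM of 41.8 with a 95% counting interval of 14.0 to 206. Scn4a was 9.15 times higher in Ubc9-depleted replicate 1 than in replicate 2, and without replicate 1 it no longer passed the filter on low counts. Its call was also lost without either control and with all 8 libraries in 1 fit.

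Pore genes made up most of the calcium channel genes that rose. Of 10 alpha-1 genes 9 were tested, and 8 of these rose, with Cacna1a not passing (adjusted p = 0.84, edgeR). Besides Cacna1s they were the N-type pore gene Cacna1b, the L-type genes Cacna1c and Cacna1d, the R-type gene Cacna1e and the T-type genes Cacna1g, Cacna1h and Cacna1i. Alpha-1 genes near 0 in the controls could pass the filter only through the depleted libraries, so the 8 of 9 is partly set by the filter. Over all genes tested, 21.1% were called higher. Cacna1b had 3.52 and 1.02 CPM in Ubc9-depleted libraries, against 0.268 and 0.119 CPM in controls (log2 fold change 3.54 ± 0.67, adjusted p = 0.000147, edgeR). Cacna1c had 3.10 and 0.249 CPM, against 0.0618 and 0.0217 CPM in controls, and Cacna1g had 2.15 and 0.236 CPM, against 0.0412 and 0.0217 CPM. The call of Cacna1g was lost without Ubc9 control replicate 2.

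Most alpha-1 genes were thus low in the controls and several times higher in Ubc9-depleted replicate 1 than in replicate 2. In replicate 2 alone 9 of the 10 alpha-1 genes were above both controls and 0 were below, where 38.8% and 30.6% of all genes were. The all-gene shares also take in genes with no count in these libraries. Some of the 9 rested on few counts. Cacna1f had 5 counts in replicate 2, against 3 and 2 in controls. Cacna1d had 20, against 15 and 21, and was above both in CPM (0.262, against 0.154 and 0.228). Without replicate 1, 6 of the 9 tested were still called, and Cacna1d and Cacna1i were not (adjusted p = 0.663 and 0.147, edgeR). Cacna1b and Cacna1c joined Cacna1s in holding their calls with any single library left out.

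Of the calcium channel beta subunits Cacnb2 rose and Cacnb3 fell. Cacnb2 had 1.64 and 0.131 CPM in Ubc9-depleted libraries, against 0.0926 and 0.0978 CPM in controls, and was not called without replicate 1 (adjusted p = 0.754, edgeR). Cacnb3 had 11.4 and 10.6 CPM in Ubc9-depleted libraries, against 18.4 and 17.3 CPM in controls, and fell by 0.69 ± 0.11 on the log2 scale (adjusted p = 1.36e-05, edgeR), with any single library left out as well. Of 6 gamma subunits tested, edgeR called 0 in either direction, and Cacng7, the highest in RPKM averaged over the 4 groups, had 2.04 and 1.53 CPM in Ubc9-depleted libraries, against 1.34 and 0.989 CPM in controls.

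Besides Scn2b and Cacnb3, the genes that fell included Kcnj12 and Kcnk5, both among the leading channel genes per length. Kcnj12 had 6.84 and 5.83 CPM in Ubc9-depleted libraries, against 9.55 and 10.4 CPM in controls (log2 fold change -0.65 ± 0.14, adjusted p = 0.000736, edgeR). Kcnk5 had 28.7 and 29.9 CPM, against 37.1 and 35.4 CPM (-0.31 ± 0.11, adjusted p = 0.0281, edgeR). The groups of both did not overlap. The call of Kcnj12 was lost without Ubc9 control replicate 2, and that of Kcnk5 without Ubc9-depleted replicate 1 or either control. Both calls were lost with scaling by library totals.

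**Figure D4:**
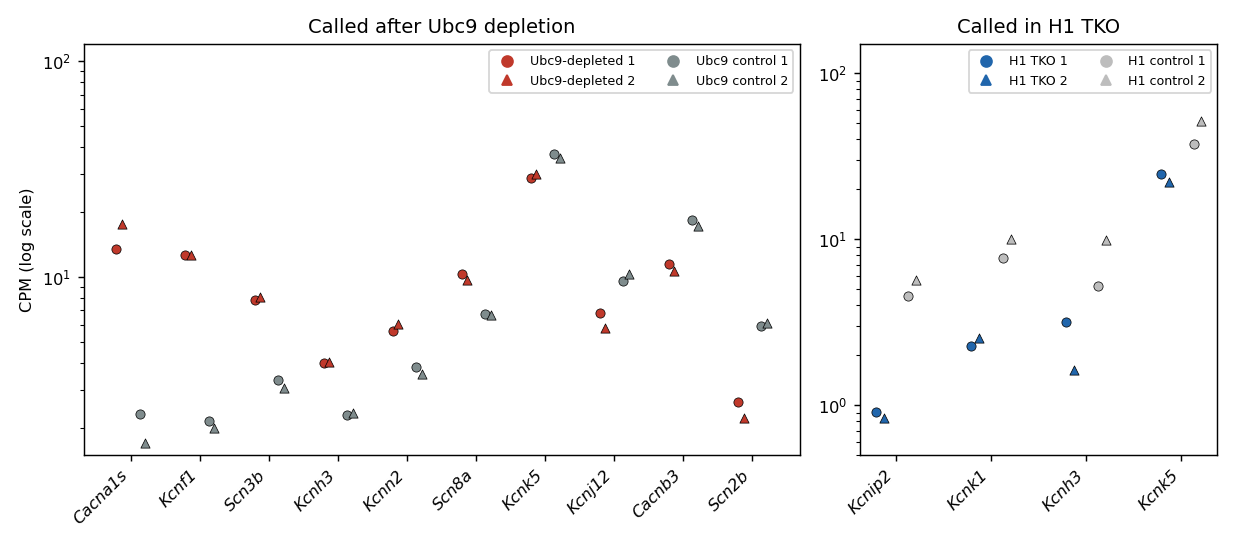
CPM on a log axis in each library for 10 channel genes with a control mean of 1 CPM or more that were called after Ubc9 depletion (left) and for 4 called in H1 TKO cells (right); circles are replicate 1 and triangles replicate 2. In each gene shown, both depleted or TKO libraries lie on the same side of both controls, and Kcnh3 and Kcnk5 appear in both panels.

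Ubc9-depleted replicate 2 on its own gave a description with no test. Of the 129 channel genes, 75 were above both Ubc9 controls, 30 below both and 24 between them, which is 58.1% above and 23.3% below, against 38.8% and 30.6% of all genes. The shares above were 63.6% for calcium, 54.3% for potassium and 76.9% for sodium genes. Restricted to the 45 genes with a control mean of 0.5 CPM or more, 5 were at least 2-fold higher and 5 at least 2-fold lower in replicate 2, against 6.19% and 2.65% of all genes at that level. Their median log2 ratio to the control mean was 0.0033. Fits without replicate 1 added Kcna2, Kcnj6, Kcnip2, Kcnip4 and Cacng5 to the genes called lower, and Kcna2, a Shaker-type pore, had 0.275 CPM in replicate 2 and 1.89 CPM in replicate 1, against 1.06 and 1.53 CPM in controls.

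Markers of cell types known to use these channels were measured beside them. Of 11 neuron markers 7 were tested after Ubc9 depletion, and 3 rose and 1 fell, where 21.1% and 15% of all genes were called. The list summed to 170 and 181 CPM in Ubc9-depleted libraries, against 169 and 155 CPM in controls. Of 11 muscle markers 8 were tested and 1, the ryanodine receptor gene Ryr2, rose. The list summed to 29.8 and 28.1 CPM, against 22.8 and 20.9 CPM. The muscle regulator gene Myod1 and the synaptic gene Snap25 stood near 0 outside replicate 1. Myod1 had 0.719 and 0.0262 CPM in Ubc9-depleted libraries, against 0.0309 and 0.0435 CPM in controls, and Snap25 had 0.719 and 0.0262 CPM, against 0 and 0.0760 CPM. All 10 fibroblast markers were tested, and 7 rose and 1 fell, with sums of 62.8 and 60.1 CPM, against 50.2 and 48.3 CPM. Of 8 primitive endoderm markers 7 were tested and 5 rose. Their sums were 464 and 554 CPM, against 571 and 538 CPM, and were mostly Sparc, which did not pass (adjusted p = 0.378, edgeR). In H1 TKO libraries, against their controls, the fibroblast list summed to 108 and 97.9 CPM, against 49.7 and 66.7 CPM, and the primitive endoderm list to 1580 and 1740 CPM, against 888 and 1140 CPM. Of 4 fibroblast markers tested in H1 TKO cells 1 rose, Fbln1, which made up most of the sum with 100.4 and 90.5 CPM, against 42.5 and 56.4 CPM, while Col1a1 had 3.15 and 3.00 CPM, against 4.24 and 7.76 CPM. Of 7 primitive endoderm markers tested 1 rose, Dab2, and most of that sum was Sparc, which did not pass (adjusted p = 0.0575, edgeR). The part of these lists in the channel results was not tested.

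The second comparison asks which genes depend on the 3 linker histones. Of the 129 channel genes 58 were tested, and in H1 TKO cells edgeR called 0 higher and 5 lower, where 8.59% of all genes were called higher and 8.43% lower. DESeq2 called 2 of the 58 higher and 9 lower, where 11.5% and 11.7% of all genes were called. The median log2 fold change of the 58 tested channel genes was -0.61, against -0.02 for all genes. Other fits tested other sets of channel genes. The median was -0.24 over 67 without H1 control replicate 2 and -0.74 over 66 without H1 TKO replicate 2. It was -0.04 over 114 with no filter and -0.89 over 30 with a filter of 1 CPM in 2 libraries. The counts moved with single libraries, as did those of all genes. They were 3 higher and 21 lower of 70 without H1 control replicate 1, where 23.4% and 22.8% of all genes were called, and 6 and 11 of 67 without H1 control replicate 2, where 25.8% and 26.1% were. They were 0 and 4 of 71 without H1 TKO replicate 1, where 4.12% and 3.45% of all genes were called, and 0 and 2 of 66 without H1 TKO replicate 2, where 4.03% and 3.19% were.

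Kcnip2 fell furthest in H1 TKO cells among the 5. It encodes an auxiliary calcium-binding subunit of A-type potassium channels and had 0.913 and 0.839 CPM in H1 TKO libraries, against 4.56 and 5.68 CPM in controls, a log2 fold change of -2.55 ± 0.35 (adjusted p = 0.00417, edgeR). Kcnk1 had 2.26 and 2.52 CPM, against 7.68 and 9.99 CPM in controls (-1.88 ± 0.29, adjusted p = 0.00647, edgeR). Both calls held with any single library left out, and for both genes the TKO libraries were close together and well below either control.

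Kcnh3 had 3.17 and 1.63 CPM in H1 TKO libraries, against 5.24 and 9.89 CPM in controls (-1.66 ± 0.45 on the log2 scale, adjusted p = 0.0445, edgeR). Kcnk5 had 24.7 and 22.2 CPM, against 37.5 and 51.2 CPM (-0.92 ± 0.23, adjusted p = 0.0366, edgeR). These groups did not overlap, but the adjusted p-values lay close to the threshold. The call of Kcnh3 was lost without H1 TKO replicate 2, and that of Kcnk5 without either TKO library.

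Several leading genes were lower in H1 TKO libraries than in controls without passing. Scn3a had 7.01 and 7.02 CPM in H1 TKO libraries, against 17.4 and 11.0 CPM in controls (adjusted p = 0.0515, edgeR), and Scn2b had 4.31 and 4.15 CPM, against 7.73 and 8.22 CPM (adjusted p = 0.0518, edgeR). Scn3b lay the other way, with 5 and 4.73 CPM, against 2.50 and 2.25 CPM (adjusted p = 0.0564, edgeR). Kcnj12 showed overlapping groups, with 24.0 and 23.4 CPM in H1 TKO libraries and 20.6 and 26.5 CPM in controls. The genes that rose most after Ubc9 depletion were barely detected in these lines: Kcnf1 had 0.320 and 0.229 CPM in H1 TKO libraries, against 0.0328 and 0.0194 CPM in controls, and Cacna1s had 0.183 and 0.275 CPM, against 0.0328 and 0 CPM. Kcnf1 did not pass (adjusted p = 0.083, edgeR), with 29 counts in the TKO pair and 3 in the controls, and Cacna1s was not tested. Of 11 neuron markers 7 were tested in H1 TKO cells, and 1 rose and 4 fell, where 8.59% and 8.43% of all genes were called. The list summed to 408 and 435 CPM, against 298 and 374 CPM in controls. Most of this sum was Stmn2, which did not pass (adjusted p = 0.53, edgeR). The marker that rose was Nefl, with 94.0 and 96.4 CPM, against 7.42 and 8.13 CPM, while Tubb3, Map2, Elavl3 and Gap43 fell. The part of this list in the channel results was not tested.

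In the direct test of the difference between the effects, made over all 8 libraries, 88 channel genes were tested. The Ubc9 effect exceeded the H1 effect for 10 of them and was smaller for 1, where 8.08% and 6.43% of all genes were called (edgeR). Kcnh3 rose after Ubc9 depletion and fell in H1 TKO cells. Its difference in log2 fold change was 2.43 (adjusted p = 0.00985, edgeR), and the call held in all 8 fits that left out a library. Kcnk1 differed by 1.65 (adjusted p = 0.00349, edgeR) and held in the same way, while its level after Ubc9 depletion was 11.7 and 14.0 CPM, against 13.9 and 15.8 CPM in controls.

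Kcnip2 differed by 2.02, Kcnn2 by 1.37, Kcns3 by 1.27 and Cacnb1, another calcium channel beta subunit, by 1.16, and each of these 4 lost the call in some fit that left out a library. Kcnip2 lost it without Ubc9 control replicate 1, Kcns3 without H1 TKO replicate 1 or 2, Ubc9-depleted replicate 2 or either Ubc9 control, Cacnb1 without H1 TKO replicate 1 or any Ubc9 library, and Kcnn2 without any 1 of the 6 libraries other than the H1 controls. The calls of Kcnn2, Kcns3 and Cacnb1 were also lost with DESeq2 and with RLE factors. Kcnd2 and Cacna1g differed by 7.89 and 8.30 from very low counts. Kcnd2 had 0.499 and 0.288 CPM in Ubc9-depleted libraries, against 0.0206 and 0.0217 CPM in controls, and 0 and 0.0458 CPM in H1 TKO libraries, against 0.328 and 0.427 CPM in controls. Cacna1g lost the call without Ubc9-depleted replicate 1, and its H1 controls had 0.0821 and 0.854 CPM. Cacng5, a gamma subunit known to associate with glutamate receptors, was the single gene with a smaller Ubc9 effect, by -4.04, with 0.889 and 0.458 CPM in Ubc9-depleted libraries, against 1.45 and 1.90 CPM in controls, and 0.753 and 0.336 CPM in H1 TKO libraries, against 0.0657 and 0.0970 CPM in controls. It was called in neither single comparison, and its difference was not called without Ubc9-depleted replicate 2, either Ubc9 control or H1 TKO replicate 1. The call of Kcnd2 was lost without either Ubc9 control or either H1 TKO library.

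Kcnk5 was the single channel gene called in the same direction in both, lower in each. The comparisons share no library.

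**Figure D5:**
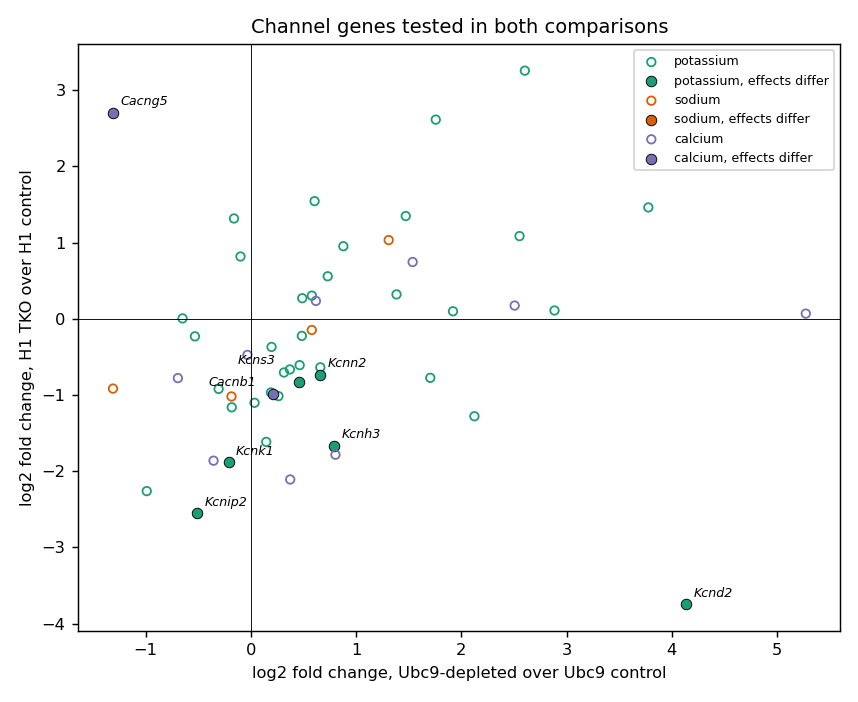
Log2 fold change of Ubc9-depleted over Ubc9 control cells (horizontal) against that of H1 TKO over H1 control cells (vertical) for 53 of the 57 channel genes tested in both, by ion; filled and named points are those whose effects differed in the test over all 8 libraries. Kcnh3 and Kcnn2 lie at the lower right, Kcnip2 and Kcnk1 at the lower left and Cacng5 at the upper left.

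Imprinted members were near the limit of detection. Kcnq1, a pore of heart and epithelia inside an imprinted domain, had 0.629 and 0.0262 CPM in Ubc9-depleted libraries, against 0 and 0.0326 CPM in controls. Kcnk9, a background channel gene, had 14 and 0 counts in Ubc9-depleted libraries and 0 in each of the other 6. Both values came almost wholly from Ubc9-depleted replicate 1.

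Genes that work with these channels but carry other names (alpha-2-delta and other subunits, pacemaker, chloride and proton channels, anchoring proteins and regulators) were counted from a list of 59 genes, of which 57 are in the tables. After Ubc9 depletion 14 of 49 tested rose and 3 fell, where 21.1% and 15% of all genes were called, and in H1 TKO cells 3 of 36 rose and 9 fell, where 8.59% and 8.43% were. Kctd12, an auxiliary subunit of GABA-B receptors, had 40.8 and 37.9 CPM in Ubc9-depleted libraries, against 11.4 and 13.1 CPM in controls (log2 fold change 1.68 ± 0.11, adjusted p = 8.02e-13, edgeR). Rest, the repressor of neuronal genes, had 347 and 418 CPM in Ubc9-depleted libraries, against 586 and 550 CPM in controls (-0.57 ± 0.13, adjusted p = 0.00141, edgeR), and the call was lost when either control was left out. Rem1, an inhibitor of calcium channels, had 0.509 and 0.327 CPM in Ubc9-depleted libraries, against 0.0103 and 0 CPM in controls, and the call was lost when either control was left out.

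In H1 TKO cells Ank3, which anchors sodium channels at the axon initial segment, fell. It had 6.10 and 7.92 CPM in H1 TKO libraries, against 22.9 and 18.3 CPM in controls (-1.55 ± 0.26, adjusted p = 0.00817, edgeR). The voltage-gated proton channel gene Hvcn1 and Fgf11, whose product binds sodium channels, fell by 1.78 and 1.67 on the log2 scale (adjusted p = 0.00689 and 0.0104, edgeR). The groups of these 3 genes did not overlap, and the calls of Ank3 and Fgf11 were each lost without 1 library, H1 TKO replicate 1 for Ank3 and H1 TKO replicate 2 for Fgf11.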

How the data were processed

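Polyadenylated RNA of 8 mouse embryonic stem cell libraries was analysed from gene counts, which the authors deposited as 1 table per comparison. Their tools included cutadapt, STAR, HTSeq and DESeq2 on build mm10, per the submitters' processing notes. Tool versions, the annotation and whether counting used strand: not given in the sources used here. Symbols were matched to GENCODE M21 (GRCm38) for coordinates and exon length, 23376 directly, 670 by an older name and 375 not at all, and all 129 channel genes matched.

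The 4 libraries of a comparison were fitted alone, using edgeR 4.0.16 under R 4.3.3 (filterByExpr with a minimum count of 10 and a minimum total of 15, TMM factors, quasi-likelihood F test, Benjamini-Hochberg adjustment over all genes at 0.05). The difference between effects was tested in 1 fit of all 8 libraries over 16974 genes. Standard errors are the log2 fold change over the square root of F. The channel genes, their role classes and the other gene lists were chosen with earlier results of these data known. Genes named in full were the linker histone genes, up to 10 called members per direction and comparison at a mean of 1 CPM with groups that did not overlap, those called in both comparisons, the highest per length of each class, the 4 largest increases under 1 CPM, 2 imprinted members and 4 partner genes per comparison; the others belong to a count given beside them and were chosen after their values were seen. Some genes that this rule takes are not reported here.

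Alternatives were DESeq2 1.42.0, scaling by RLE or by library totals, testing all genes or those at 1 CPM in 2 libraries, 1 fit of all libraries, a replicate block and leaving out each library. Where a library was left out, its lone partner was taken to vary like the other groups of the fit. Tested on simulated counts, the edgeR procedure recovered 62% of 2-fold and 77% of 4-fold changes among 16499 genes in the Ubc9 design (6.08% of 148 calls false), and 24% and 81% among 14800 genes in the H1 design (2.78% of 108 calls false). The simulation gave both groups of a gene the same spread. In the data the SD between libraries was 0.484 in Ubc9-depleted cells and 0.181 in controls, and 0.273 in H1 TKO cells and 0.54 in controls. These rates therefore do not cover unequal groups or reads found mainly in Ubc9-depleted replicate 1. Counting intervals are exact binomial at 95%, and these and the floor of 3 counts cover counting error only. Deposited counts carry no molecular identifiers in the tables.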

Additional observations from a re-analysis of the deposited data

Results flagged for a closer look

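The Ubc9 and H1 effects of 9 channel genes given here differed in the edgeR test of the difference itself. The difference in log2 fold change was 2.43 ± 0.51 (SE) for Kcnh3, which rose after Ubc9 depletion and fell in H1 TKO cells. It was 2.02 ± 0.40 for Kcnip2 and 1.65 ± 0.29 for Kcnk1, which fell in H1 TKO cells. It was 1.37 ± 0.40 for Kcnn2, which rose after Ubc9 depletion. Kcns3 differed by 1.27 ± 0.36 and Cacnb1 by 1.16 ± 0.34, with neither called in a single comparison. The calls of Kcnn2, Kcns3 and Cacnb1 were lost with DESeq2 and with RLE factors.

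Kcnd2 differed by 7.89 ± 1.88 and Cacna1g by 8.30 ± 2.12, each with under 1 CPM in all libraries but Ubc9-depleted replicate 1 of Cacna1g, at 2.15 CPM. Cacng5 differed by -4.04 ± 1.05, with 0.889 and 0.458 CPM in Ubc9-depleted libraries, against 1.45 and 1.90 CPM in controls. Their adjusted p-values ran from 0.00349 to 0.0454 (edgeR). The comparisons were made with different library kits and on different lines, which cannot be told apart from the difference between perturbations.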

How the results depend on the processing

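For the Ubc9 comparison, the 30 higher channel genes became 14 with a filter of at least 1 CPM in 2 libraries and 7 with all 8 libraries in 1 fit, and ranged from 9 to 92 over fits without 1 library. The 5 lower genes (15%) became 2 with library totals alone (6.57%) and 2 with all 8 libraries in 1 fit (2.85%). In H1 TKO cells the counts of 0 higher and 5 lower became 2 and 9 with DESeq2, 2 and 11 with no filter, and 7 and 13 with all 8 libraries in 1 fit, and ranged from 0 to 6 and from 2 to 21 without 1 library. Of the differences between effects, the 10 larger ones ranged from 6 to 25 without 1 library, and the 1 smaller one became 2 with DESeq2, 0 with library totals alone and 0 to 3 without 1 library. Partner genes, 14 higher and 3 lower after Ubc9 depletion, became 8 higher with the stricter filter and 1 higher and 0 lower with all 8 libraries in 1 fit, and ranged from 2 to 33 and from 0 to 7 without 1 library. In H1 TKO cells, 3 partner genes higher and 9 lower (8.59% and 8.43%) became 14 lower with all 8 libraries in 1 fit (12.7%). These numbers moved as well when single libraries were left out. The causes of these shifts were not tested, apart from the smaller number of channel genes tested (41) under the stricter filter.

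Replicate numbers are shared between groups, but the labels do not say that they mark pairs, and same-numbered deviations correlated at -0.00322 (Ubc9) and 0.156 (H1). With the replicate block, 27 of 80 channel genes were higher and 5 lower after Ubc9 depletion, where 19.2% and 16% of all genes were called. In H1 TKO cells 2 of 58 were higher and 11 lower, where 11.7% and 11.7% were. Of 88 differences between effects 11 were larger and 1 smaller, where 9.82% and 7.76% were. The difference of Kcnn2 was not called with the block (adjusted p = 0.0585, edgeR), with DESeq2 (0.0572), with RLE factors (0.0646) or with no filter (0.0581). Those of Kcns3 (0.0635 and 0.0624) and Cacnb1 (0.0731 and 0.0635) were not called with DESeq2 and RLE factors, and that of Cacng5 was not called with library totals alone (0.0506). Under library totals the all-gene median in the Ubc9 comparison was 0.25, against 0.06 with TMM. At least 10 counts were held by 128 channel genes in Ubc9-depleted replicate 1 and 78 in replicate 2, against 66 and 66 in controls, and by 52 and 64 in H1 TKO libraries, against 54 and 56 in controls.

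Some log2 fold changes of genes that were not called changed sign. After Ubc9 depletion Cacna1a stood at 0.157 with library totals alone and 0.0319 with the stricter filter, and with library totals Kcnab3 stood at 0.0157 and Scn3a at 0.0078. In H1 TKO cells Kcnj12 stood at -0.0685 with library totals, -0.0175 with no filter, -0.0131 with the stricter filter and -0.16 to 0.195 without 1 library, Cacna1c at -1.16 to 3.86 and Cacng7 at -0.23 to 0.92 without 1 library. Each of the 5 genes called lower in H1 TKO cells was also called with DESeq2, RLE factors, library totals alone, no filter, the stricter filter, all 8 libraries and the block. Depth limits values near 0.03 to 0.0685 CPM, the level of 3 counts.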
